A study of Mus musculus with 8 samples.

Results

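The Fos, Jun and Egr immediate early genes are the transcription factor genes *Fos*, *Fosb*, *Fosl2*, *Jun*, *Junb*, *Jund*, *Egr1*, *Egr2* and *Egr3*, together with the stress-responsive *Atf3*. These 10 genes were taken by name from the 24746 genes of the count table. The rule does not use their values, but it was chosen with earlier results of these data known. Of these, 7 had enough counts to be tested, as did 12714 genes in all, and *Fosb*, *Atf3* and *Egr2* did not.

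RNA was sequenced from pro-B cells sorted from mouse bone marrow, with 1 library per mouse. Cells of this stage are committed to the B lineage and are assembling their immunoglobulin heavy chain gene. The 4 DKO mice had the genotype miR-15a/b fl/fl Vav-Cre, in which Cre removes both floxed miRNA clusters from hematopoietic cells (miR-15a with miR-16-1, and miR-15b with miR-16-2). The 4 control mice, miR-15a/b+/+ Vav-Cre, carry the same Cre with intact clusters. All mice were C57BL/6 and 10 to 12 weeks old, and their sex is not in the labels. The comparison asks which transcripts differ once the miR-15 family is lost from these cells.

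Proteins of the Fos and Jun families join through leucine zippers to form the AP-1 complex. Jun proteins can pair with each other, whereas Fos proteins need a Jun partner. EGR proteins are zinc finger factors that bind GC-rich promoter elements. Transcription of these genes begins within minutes of a growth factor, receptor or stress signal, by way of ERK and other kinases acting on factors such as SRF, ELK and CREB, and most of the transcripts are short-lived. In early B cells, EGR1 is known as a factor downstream of pre-B cell receptor signalling. The same genes are also widely known to respond to tissue dissociation and cell sorting.

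MicroRNAs of the miR-15 family pair with target transcripts mainly through their seed, bases 2 to 8. The mature sequences that the deleted clusters encode are shown with the seed in capitals (RefSeq, GRCm38.p6), because all share the seed AGCAGCA. Its complement was searched for in the 3' UTRs of the set.
mmu-miR-15a-5p: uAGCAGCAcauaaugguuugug
mmu-miR-15b-5p: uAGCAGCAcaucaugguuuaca
mmu-miR-16-5p: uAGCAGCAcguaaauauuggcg

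The complement of this seed was found in the longest annotated 3' UTR of 2 of the 10 genes, *Fosl2* and *Egr3*, and not in the other 8. Among 11804 tested genes with an annotated 3' UTR, 72.1% held no match in their longest UTR, 20.1% held at best a match to bases 2 to 8, and 4.47% held such a match followed by an A (8mer). In 3.33% the best match was to bases 2 to 7 followed by an A, which the 8 genes without the complement also lacked. Other kinds of site were not searched for, so these 8 are not excluded as targets. *Fosl2* had 1 match of the 8mer kind and 2 to bases 2 to 8. *Egr3* had 1 match to bases 2 to 8, which its shortest annotated 3' UTR of 50 bases lacks. The sites are shown with the pairing bases in capitals (GENCODE M21, GRCm38), named by gene and by position in the UTR.
Fosl2 at 1775: ggctctaactcTGCTGCTctggtctccca
Fosl2 at 2695: ggagctcagacTGCTGCTttcataggcaa
Fosl2 at 4510: tggtaggagctTGCTGCTAtggaggaaaga
Egr3 at 776: agctgcagtggTGCTGCTgccgccgcctc

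A sequence match is a description and not a measured target site. A separate motif of unstable transcripts, the AU-rich nonamer TTATTTATT, was present in the longest 3' UTR of *Fos* and *Fosl2* (1 copy each) and in 7.95% of the 11804 genes. The shorter pentamer ATTTA occurred in all 10 genes, at 4.91 copies per kb of UTR in *Fos*, 4.12 in *Junb* and 3.24 in *Jun* down to 0.434 in *Fosb*, against a median of 1.27 per kb over the 11804 genes, which 9 of the 10 exceeded.

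Total counts per library were 38073065 to 43288133 in DKO and 38257907 to 41530921 in control mice. Reads over *Mir16-1* numbered 0 in every DKO library and 5, 1, 2 and 4 in the control libraries. *Mir15b* had 0 reads in every library. *Mir15a* and *Mir16-2* each had 1 read in control mouse 3 and 0 elsewhere. These counts therefore cannot show the loss of the cluster of miR-15b with miR-16-2. All 11 pro-B cell markers, including *Pax5*, *Rag1* and *Dntt*, were detected in every library. Their summed level was 32452 to 35968 CPM in DKO and 30135 to 34141 CPM in control mice. CPM are counts per 1000000 of the library total, scaled by edgeR's TMM factor. Most of the summed level of the pro-B cell markers was *Igll1*, *Vpreb1* and *Cd79a*. Of these 11 markers, 2 passed the test given below as higher in DKO mice and 0 as lower. *Kit* averaged 41.4 CPM in DKO and 17.9 CPM in control mice, and *Il7r* 456 and 236 CPM. Transcripts of other cell types were also present. The 8 neutrophil markers summed to 310 to 2220 CPM in DKO and 420 to 2808 CPM in control mice, and the 10 monocyte and macrophage markers to 291 to 737 CPM in DKO and 414 to 1011 CPM in control mice, most of it *Lyz2*, which neutrophils express as well. Without *Lyz2* the other 9 summed to 11.7 to 40.4 CPM in DKO and 37.6 to 113 CPM in control mice. None of the 10 passed the test, but the mean of each was lower in DKO mice, with a median log2 fold change of -1.20 against -0.01 over all tested genes and 5 at an unadjusted p under 0.05. The 6 detected T and NK cell markers summed to 15.4 to 35.0 CPM in DKO and 8.75 to 49.8 CPM in control mice, and the 7 stromal and endothelial markers to 51.5 to 61.9 and 42.0 to 66.3 CPM. Most of the T and NK cell sum was *Klrb1c*, at 14.6 to 33.5 CPM in DKO and 8.16 to 47.1 CPM in control mice. Most of the stromal and endothelial sum was *Pecam1*. *Cxcl12* was at 1.10 to 2.36 CPM in DKO and 2.50 to 5.42 CPM in control mice. Of these 7 markers 3 were tested, and 1 passed as lower in DKO mice. Among erythroid markers, the 4 globin genes had no count in any library. *Xist*, transcribed from the inactive X chromosome, was below 1 CPM in DKO mice 3 and 4 and control mouse 1, which also held 161 to 180 CPM of Y-linked transcripts, and above 10 CPM in the other 5 libraries. P-values below measure the spread between these 8 mice.

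No gene of the set passed the test between DKO and control cells (0 of 7 tested, quasi-likelihood test of edgeR, Benjamini-Hochberg adjusted over all 12714 genes), where 4.58% of all tested genes were called, 2.65% as higher and 1.93% as lower in DKO cells. At an unadjusted p under 0.05 there was 1, *Egr1*, where 20.2% of all tested genes lay, and likelihood ratio, DESeq2 and limma-voom tests also gave 0 calls. The log2 fold change was below 0 for 5 of the 7. In 0 of the 10 genes did the values of the DKO and control mice stay apart, against 13.8% of all tested genes.

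**Figure D1:**
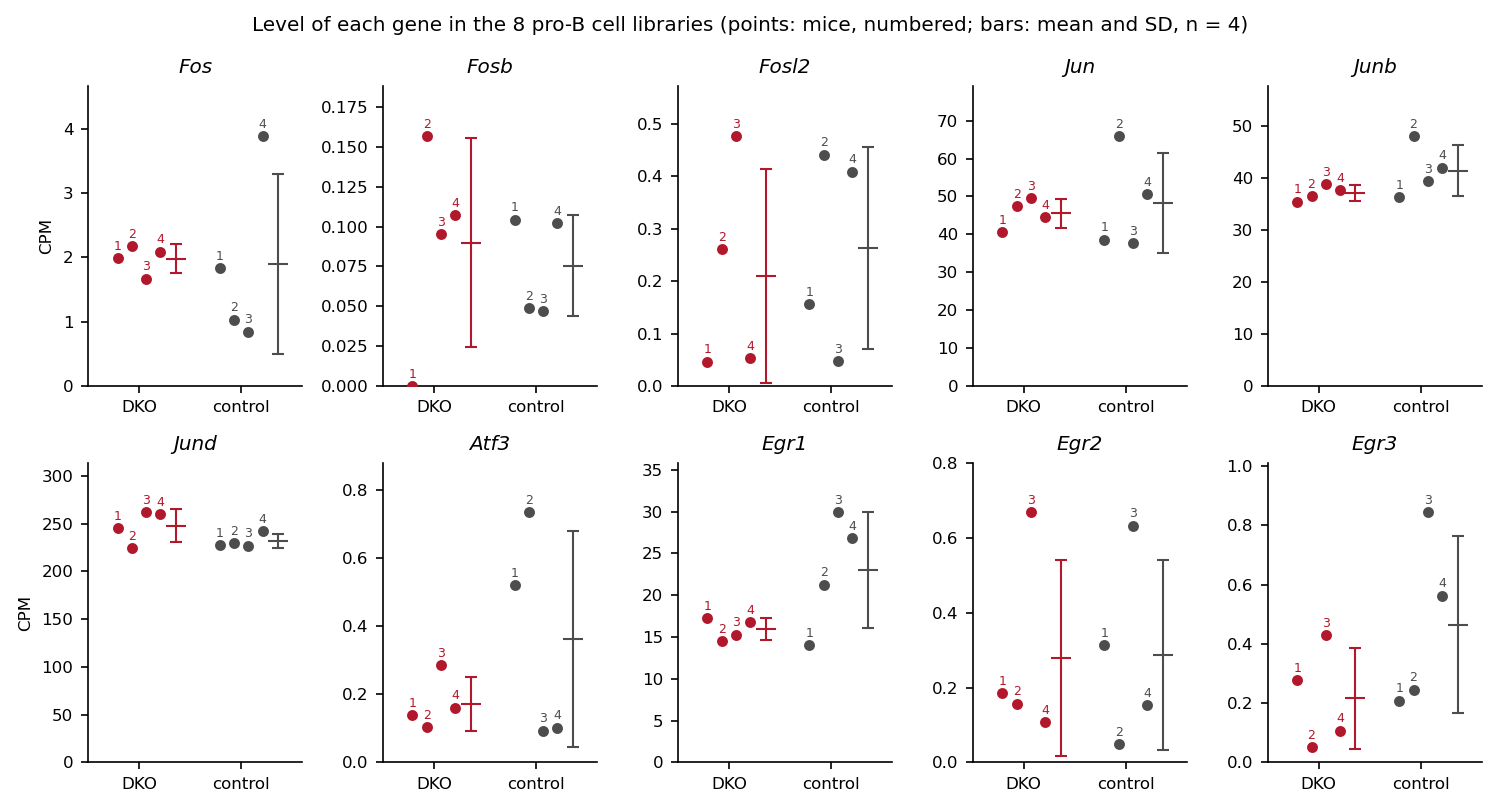
Level of each of the 10 genes in CPM (vertical axes from 0, a scale for each gene) in the DKO and control libraries. Points are mice with their numbers, and bars are the mean and SD (n = 4). The groups overlap for every gene, and the *Egr1* values of control mice 2, 3 and 4 lie above all 4 DKO values.

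The set was dominated by the Jun family. Per kilobase of exon length, *Jund* had the highest level at 83.2 ± 5.21 CPM per kb, followed by *Junb* at 21.4 ± 2.24, *Jun* at 14.7 ± 2.87 and *Egr1* at 6.34 ± 1.94 CPM per kb (SD, n = 8 libraries). *Fos* came next at 0.925 ± 0.441 CPM per kb. The remaining 5 genes were lower still, with *Atf3* at 0.136, *Egr2* at 0.0955, *Egr3* at 0.0850, *Fosl2* at 0.0403 and *Fosb* at 0.0219 CPM per kb. *Jund* exceeded *Junb*, *Jun* exceeded *Egr1*, *Egr1* exceeded *Fos* and *Fos* exceeded *Atf3* with no overlap among the 8 libraries. The ranges of *Junb* and *Jun* overlapped, although *Junb* was the higher in all 8 libraries. From *Atf3* down to *Fosb* each gene overlapped the next, so that their order lay within the spread. *Jund* alone made up 68.9 to 71.9% of the summed CPM of the 10 genes in DKO libraries and 62.4 to 71.2% in control libraries.

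The Fos family, whose proteins need a Jun partner to bind DNA, was scarcely expressed. *Fos*, the best known immediate early gene (chromosome 12, 85473901 to 85477270, GRCm38), was at 1.99, 2.17, 1.67 and 2.09 CPM in DKO mice 1 to 4 and at 1.83, 1.03, 0.843 and 3.89 CPM in control mice 1 to 4. The DKO values lay close together inside the range of the control values, in which mouse 4 was 4.61-fold above mouse 3, against a ratio of 1.30 between the highest and lowest DKO mice. In DKO over control cells the log2 fold change of *Fos* was 0.06 (SE 0.45, 95% interval -0.92 to 1.05, adjusted p = 0.960 by edgeR's quasi-likelihood test). Its sign turned when control mouse 2 (-0.14) or control mouse 3 (-0.18) was left out, and without control mouse 4 it was 0.68. Control mouse 4 also had the highest summed neutrophil markers (2808 CPM) and the highest value of 5 of the 8, whereas control mouse 1, with 2581 CPM of them, had 1.83 CPM of *Fos*. The part of other cells in the *Fos* level was not tested, and in bulk RNA fewer cells of a type and less RNA per cell cannot be told apart.

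*Fosl2*, which encodes FRA-2 (chromosome 5, 32136472 to 32157839), had 2, 10, 20 and 2 reads in DKO mice and 6, 18, 2 and 16 reads in control mice. High and low libraries occurred in both groups, with a ratio of highest to lowest CPM of 10.3 in DKO and 9.41 in control mice. For *Fosl2* the log2 fold change was -0.32 (SE 0.86, 95% interval -2.21 to 1.57, adjusted p = 0.878 by edgeR's quasi-likelihood test). It became 0.02 without DKO mouse 1 and 0.05 without control mouse 2, so its direction rests on single libraries. This interval covers a rise and a fall of more than 2-fold for the gene of the set with most seed matches.

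*Fosb*, whose product is close to FOS in structure (chromosome 7, 19302696 to 19310045), had 0, 6, 4 and 4 reads in DKO mice and 4, 2, 2 and 4 reads in control mice. The count of 0 in DKO mouse 1 allows up to 0.0693 CPM, counting error only. This bound takes counts as independent, although all 7 *Fosb* counts above 0 were even, and it would be higher if reads were counted in pairs. *Fosb* was too low to be tested. The promoters of *Fosl2* and *Fosb* each held the EGR-type element GCGGGGGCG (either strand, 2.91% of 32851 mouse promoter windows of 250 bases before to 50 after a start), at 79 and 50 bases before the annotated start, and that of *Fos* held TATAAA 33 bases before it (8.32% of windows). These are shown with the element in capitals (RefSeq, GRCm38.p6), since they match elements of the kind bound by other members of the set or by the basal machinery. Binding was not measured.
Fosl2 promoter: ccggctgcgcGCGGGGGCGgaagggcgcg
Fosb promoter: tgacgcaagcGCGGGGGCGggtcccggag
Fos promoter: acagcgcttcTATAAAggcgccagct

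Among the Jun family, *Jun* (chromosome 4, 95049036 to 95052222) encodes c-JUN, the strongest transactivator of the family. *Jun* was at 40.5, 47.5, 49.6 and 44.5 CPM in DKO mice and at 38.6, 66.0, 37.7 and 50.6 CPM in control mice. All DKO values fell inside the control range, whose top was control mouse 2. On the log2 scale the change of *Jun* was -0.08 (SE 0.17, 95% interval -0.45 to 0.29, adjusted p = 0.828 by edgeR's quasi-likelihood test), and 0.10 without control mouse 2. The *Jun* promoter held TGACATCA, an AP-1-type element through which JUN is known to act on its own gene, 45 bases before the annotated start (3.62% of windows, either strand).
Jun promoter: agcctcggggTGACATCAtgggctattt

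*Junb* (chromosome 8, 84976909 to 84978748), which encodes a weaker transactivator than c-JUN, was at 35.5, 36.5, 38.9 and 37.8 CPM in DKO mice and at 36.4, 48.1, 39.4 and 42.0 CPM in control mice. The DKO mice lay within 1.10-fold of each other, and control mouse 2 was again the highest. For *Junb* the log2 fold change was -0.16 (SE 0.10, 95% interval -0.39 to 0.07, adjusted p = 0.426 by edgeR's quasi-likelihood test). In control mouse 2 the level was also the highest of the 8 libraries for 8 of the 10 monocyte and macrophage markers, among them *C1qa*, *C1qb*, *C1qc* and *Vcam1*. The 9 markers other than *Lyz2* summed to 113 CPM there and to 37.6 to 52.3 CPM in the other control mice, whereas *Lyz2* was at 355 CPM there and at 971 CPM in control mouse 1. The part of such cells in the *Jun* and *Junb* levels was not tested.

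*Jund* (chromosome 8, 70697739 to 70700616), whose product is the Jun protein of resting cells, was at 245, 224, 262 and 260 CPM in DKO mice and at 227, 229, 227 and 242 CPM in control mice. DKO mice 1, 3 and 4 lay above all control mice and DKO mouse 2 below them. On the log2 scale *Jund* changed by 0.10 (SE 0.08, 95% interval -0.08 to 0.27, adjusted p = 0.542 by edgeR's quasi-likelihood test). This is the narrowest interval of the 7, and its bounds correspond to less than 1.5-fold in either direction.

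*Atf3*, a stress-induced gene whose product pairs with Jun proteins and often acts as a repressor (chromosome 1, 191170297 to 191183333), had 6, 4, 12 and 6 reads in DKO mice and 20, 30, 4 and 4 reads in control mice. Control mice 1 and 2 were above every DKO mouse, and control mice 3 and 4 were among the lowest. The 28 reads of all DKO and 58 of all control libraries were too few to be tested under the filter. Fitted without a filter on low counts, the log2 fold change was -1.05 (unadjusted p = 0.236, adjusted p = 0.526, edgeR's quasi-likelihood test).

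Among the Egr family, *Egr1* (chromosome 18, 34861207 to 34864956) was the gene nearest to the threshold. It was at 17.3, 14.5, 15.3 and 16.8 CPM in DKO mice and at 14.0, 21.3, 29.9 and 26.8 CPM in control mice. The DKO mice lay within 1.19-fold of each other, and control mice 2, 3 and 4 exceeded all of them while control mouse 1 was below all of them. For *Egr1* the log2 fold change was -0.53 (SE 0.20, 95% interval -0.97 to -0.09, unadjusted p = 0.0233, adjusted p = 0.165 by edgeR's quasi-likelihood test), and so did not pass. Without control mouse 1 it was -0.70 (adjusted p = 0.0155), and with any other library left out the adjusted p was 0.208 to 0.342. Over the 10 other settings of the model it was 0.0848 to 0.298.

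Control mouse 1 was also the control library with *Xist* below 1 CPM. In the 5 libraries with *Xist* above 10 CPM, *Egr1* was at 14.5 and 17.3 CPM in the 2 DKO mice and at 21.3 to 29.9 CPM in the 3 control mice. In the 3 libraries with *Xist* below 1 CPM it was at 15.3 and 16.8 CPM in the 2 DKO mice and at 14.0 CPM in control mouse 1. Whether the difference between DKO and control cells depends on this split was not tested, since its lower part holds 1 control mouse. With the log2 level of *Xist* as a covariate, the log2 fold change was -0.40 (adjusted p = 0.244). Control mouse 1 also had the highest of the 8 values of the summed monocyte and macrophage markers (1011 CPM), the summed T and NK cell markers (49.8 CPM) and the erythroid *Alas2* (89.4 CPM), and the second highest of the summed neutrophil markers (2581 CPM). Without *Lyz2* the monocyte and macrophage markers summed to 39.6 CPM in it, and *Klrb1c* made up 47.1 CPM of its T and NK cell sum. The part of these cells in the *Egr1* level, and of the lower macrophage markers of DKO mice in the values of *Egr1*, *Egr3* and the genes below, was not tested.

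**Figure D2:**
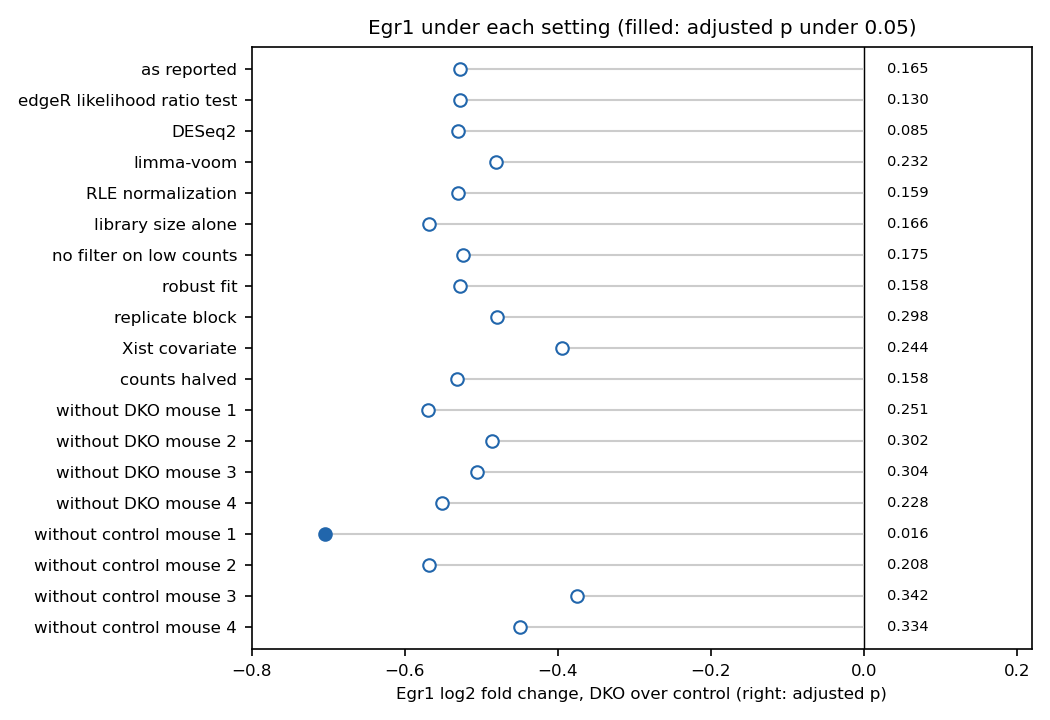
*Egr1* log2 fold change, DKO over control (horizontal axis), under each setting of the model (rows), with the adjusted p printed at the right. Points are filled where the adjusted p is under 0.05, which holds in 1 row, without control mouse 1 (-0.70), and every value is below 0.

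*Egr2*, known for its part in lymphocyte development and tolerance (chromosome 10, 67537869 to 67542188), had 8, 6, 28 and 4 reads in DKO mice and 12, 2, 27 and 6 reads in control mice. DKO mouse 3 and control mouse 3 held most of the reads of their groups, 28 of 46 and 27 of 47. It was too low to be tested. Its promoter held the CArG box, the binding element of SRF (either strand, 1.63% of windows), 72 bases before an annotated start.
Egr2 promoter: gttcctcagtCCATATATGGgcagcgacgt

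*Egr3*, a close relative of *Egr2* (chromosome 14, 70077445 to 70082613), had 12, 2, 18 and 4 reads in DKO mice and 8, 10, 36 and 22 reads in control mice. The groups overlapped, with control mice 3 and 4 above every DKO mouse. For *Egr3* the log2 fold change was -1.08 (SE 0.71, 95% interval -2.64 to 0.48, adjusted p = 0.425 by edgeR's quasi-likelihood test). This value rests on 36 reads in all DKO and 76 reads in all control libraries.

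The spread between libraries differed widely within the set. The within-group SD of log2(CPM + 0.1) was 0.93 for *Fosl2*, 0.79 for *Egr3*, 0.67 for *Fos*, 0.35 for *Egr1*, 0.28 for *Jun*, 0.13 for *Junb* and 0.08 for *Jund*, against a median of 0.23 over all tested genes. Single libraries carried much of it, since the SD was 0.36 for *Fos* without control mouse 4, 0.18 for *Egr1* without control mouse 1, 0.18 for *Jun* and 0.079 for *Junb* without control mouse 2, and 0.048 for *Jund* without DKO mouse 2. Counting error alone widens it for the lowest genes. The edgeR dispersion relative to the trend for genes of like abundance was above 1 for 5 of the 7, with 1.92 for *Fosl2*, 1.35 for *Egr3*, 1.34 for *Egr1*, 1.29 for *Jun* and 1.26 for *Fos*, and below 1 for *Junb* (0.599) and *Jund* (0.534), against a median of 0.751 over all tested genes. *Jund* was less variable than all but 3.77% of tested genes in SD, whereas *Fos* was more variable than 90.1% of them. The ratio of highest to lowest library was wider in control than in DKO mice for 6 of the 10 genes, *Fos*, *Jun*, *Junb*, *Atf3*, *Egr1* and *Egr2*, and its median over all tested genes was also wider in control mice (1.32 in DKO, 1.44 in control).

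The libraries that stood high were not the same from gene to gene. Within the DKO mice, DKO mouse 3 had the highest value of 7 of the 10 genes. Within the control mice, the highest value fell in mouse 2 for 4 genes, mouse 3 for 3, mouse 4 for 2 and mouse 1 for 1. Control mouse 3 had the lowest control value for 6 genes and yet the highest of all 8 libraries for *Egr1* and *Egr3*. The summed CPM of the 10 genes spanned 326 to 369 in DKO and 320 to 367 in control libraries, and since the 3 Jun genes made up 94.2 to 94.9% of it in DKO and 90.4 to 94.6% in control libraries, it says little about the other 7.

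**Figure D3:**
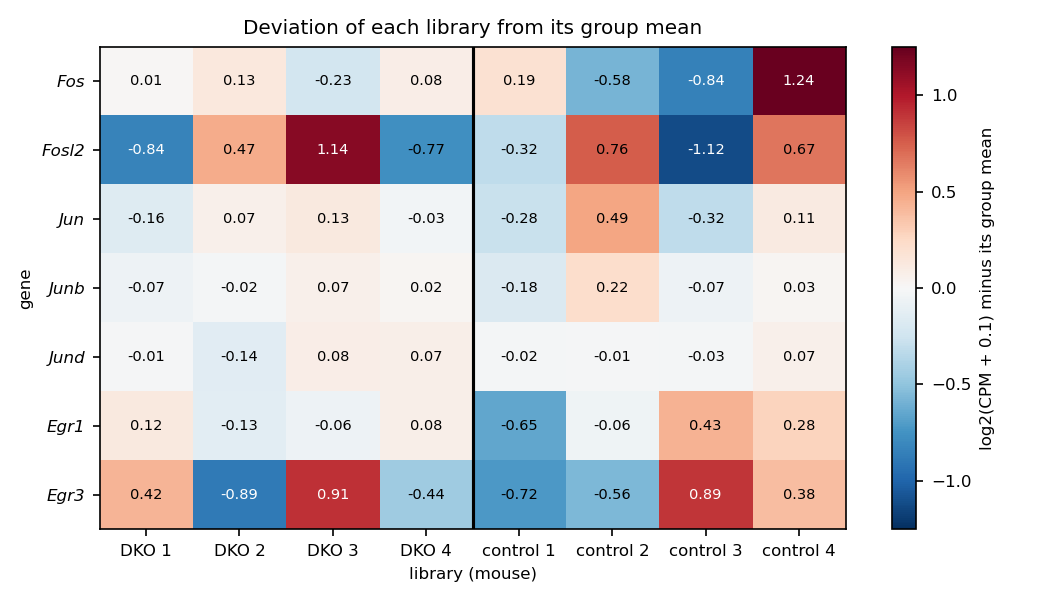
Deviation of each library from the mean of its own group, in log2(CPM + 0.1), for the 7 tested genes (rows) in the 4 DKO and 4 control libraries (columns), with red above and blue below the group mean. *Fos* in control mouse 4 (1.24) and *Fosl2* in DKO mouse 3 (1.14) deviate most above the mean, and the *Jund* row is nearly blank.

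Pairs of genes were compared by these deviations. Over the 21 pairs of the 7 tested genes, 15 had a positive Pearson correlation and 2 an unadjusted p under 0.05, and none passed after Benjamini-Hochberg adjustment (lowest adjusted p = 0.237, exact permutation of mice within groups). *Jun* and *Junb* had a Pearson r of 0.93 (exact permutation p = 0.0139, adjusted p = 0.237) and a Spearman rho of 0.95 (exact permutation p = 0.0122, adjusted p = 0.128), and r was 0.91 without the 2 libraries farthest from the median of *Jun*, control mice 2 and 3. *Fosl2* and *Jun* had an r of 0.78 (exact permutation p = 0.0226, adjusted p = 0.237) and a rho of 0.90 (exact permutation p = 0.00347, adjusted p = 0.0729), with r at 0.75 without control mouse 3 and DKO mouse 3. *Fos* and *Jun*, the classical AP-1 partners, had an r of 0.03 (exact permutation p = 0.944, adjusted p = 0.997), and this value rested on 2 libraries, since r was -0.89 without control mice 3 and 4. *Egr1* and *Egr3* had an r of 0.65 (exact permutation p = 0.0677, adjusted p = 0.474), which was 0.43 without control mice 1 and 3.

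The genes with the most similar pattern were sought among 11262 genes of at least 1 CPM, by the root mean square (RMS) difference of these deviations over the 8 libraries. Nearest to *Fos* were *Gapt*, an adaptor protein gene of hematopoietic cells (0.23), *Paqr5* (0.27), *Spon1* (0.29), *Zfp341* (0.30) and *Pycr1* (0.31), against a median of 0.61 over all genes. Other genes of the set were 0.57 (*Jund*) to 0.96 (*Egr3*) from *Fos*. Nearest to *Egr1* were *Tmem63b* (0.08), *Bcl6*, a repressor that acts in B cells (0.10), *Grik5* (0.10), *Ammecr1* (0.10) and *Marcks*, a protein kinase C substrate (0.10), against a median of 0.35. Other genes of the set were 0.29 (*Junb*) to 0.92 (*Fosl2*) from *Egr1*. The nearest genes are the extremes of a large search and are given as a description.

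The counts of these genes had an arithmetic feature. Of the 79 counts above 0 in the 10 genes, 75 were even numbers. For *Jun*, *Junb*, *Jund* and *Egr1*, all with at least 500 reads in every library, 30 of 32 counts were even (93.8%), whereas 49.9 to 52.4% of counts of 1000 and above were even over all genes. Of 6802 genes with at least 500 reads in every library, 334 (4.91%) had an even count in at least 7 of 8 libraries, and these included all 4. *Jun*, *Junb* and *Jund* are annotated with 1 exon and *Egr1* with 2, and among counts of 1000 and above 67.8% were even in genes of 1 exon, 54.3% in genes of 2 and 50.5% in genes of 6 or more. The libraries were sequenced as paired ends and carried on as single reads, and whether both ends of a fragment were counted was not tested. After division of all counts by 2 the filter kept 5 of the 10 genes, of which 0 were called.

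Other genes of the pathway were taken from 5 lists of 91 genes, which were chosen with earlier results of these data known. Of their 79 tested genes 2 were higher and 4 lower in DKO cells (7.59% called, against 4.58% of all tested genes). Each list as a whole is summarized by its counts and median only, without a set test, and some of its genes are then named. Among 10 other members of the AP-1 and EGR families, 6 were tested, 1 was higher and none was lower (1 at an unadjusted p under 0.05), with a median log2 fold change of -0.11 against -0.01 over all tested genes. *Jdp2*, which encodes a repressor that binds Jun proteins, rose to 5.85, 5.78, 6.39 and 6.86 CPM in DKO mice, against 3.16, 3.11, 3.49 and 3.55 CPM in control mice. The groups did not overlap, and the log2 fold change was 0.90 (SE 0.17, adjusted p = 0.0175 by edgeR's quasi-likelihood test). The adjusted p was 0.0562 without DKO mouse 3 and 0.0809 with the replicate number as a block in the same test. *Atf2* and *Atf7*, whose products pair with Jun proteins, had log2 fold changes of -0.17 (adjusted p = 0.334) and -0.15 (adjusted p = 0.473), and *Nab2*, a corepressor of EGR proteins, -0.21 (adjusted p = 0.695).

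Of 32 other immediate early genes, 29 were tested, none was higher and 1 was lower (5 at an unadjusted p under 0.05), with a median log2 fold change of -0.05. *Myc*, a driver of cell growth, fell to 44.1, 52.3, 30.9 and 33.7 CPM in DKO mice, against 75.6, 77.0, 51.7 and 66.6 CPM in control mice. DKO mouse 2 was above control mouse 3, so the groups overlapped, and the log2 fold change was -0.75 (SE 0.18, adjusted p = 0.0407 by edgeR's quasi-likelihood test). This call was lost without DKO mouse 1 (adjusted p = 0.0837), 3 (0.118) or 4 (0.0973) and without control mouse 1 (0.0572), 2 (0.0881) or 4 (0.0908). *Dusp1*, a phosphatase of MAP kinases, averaged 23.9 ± 3.26 CPM in DKO and 16.1 ± 3.29 CPM in control mice (SD, n = 4 each), with no overlap of the groups, a log2 fold change of 0.57 and an adjusted p of 0.0785. *Plk3*, a stress-responsive kinase gene at 0.0477 to 0.231 CPM in DKO and 0.281 to 0.730 CPM in control mice, had a log2 fold change of -2.22 (adjusted p = 0.0753). *Klf6*, a zinc finger factor, had one of -0.28 (adjusted p = 0.119).

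Of 25 kinases and transcription factors upstream of these genes, 24 were tested, 1 was higher and 1 was lower (8 at an unadjusted p under 0.05), with a median log2 fold change of -0.02. *Mapk3*, which encodes ERK1, rose to 59.6, 66.1, 60.4 and 65.6 CPM in DKO mice, against 37.98, 42.7, 43.3 and 43.3 CPM in control mice. The groups were well apart, and the log2 fold change was 0.59 (SE 0.09, adjusted p = 0.00550 by edgeR's quasi-likelihood test). *Crem*, a cAMP-responsive relative of CREB, fell to 29.6, 26.7, 24.1 and 25.3 CPM in DKO mice, against 45.5, 40.5, 35.5 and 39.2 CPM in control mice. Its groups did not overlap either, with a log2 fold change of -0.61 (SE 0.11, adjusted p = 0.0132, and 0.0523 without DKO mouse 3). *Elk3*, a partner of SRF, averaged 89.8 ± 6.13 CPM in DKO and 117 ± 13.2 CPM in control mice (SD, n = 4 each), at a log2 fold change of -0.38 and an adjusted p of 0.0521.

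Of 11 feedback genes of the ERK pathway, 8 were tested, none was higher and 1 was lower (2 at an unadjusted p under 0.05), with a median log2 fold change of 0.04. *Phlda1*, which encodes a pleckstrin homology domain protein, fell to 1.94, 1.94, 1.86 and 2.44 CPM in DKO mice, against 5.69, 6.08, 8.83 and 8.95 CPM in control mice. This was the largest called change of the lists, with a log2 fold change of -1.85 (SE 0.22, adjusted p = 0.00182 by edgeR's quasi-likelihood test), and the groups were far apart. *Spred2*, an inhibitor of ERK signalling, was at 6.40 to 7.05 CPM in DKO and 5.73 to 15.9 CPM in control mice (log2 fold change -0.65, adjusted p = 0.211). *Dusp6*, the phosphatase that follows ERK activity, was at 62.4 to 109 CPM in DKO and 70.6 to 80.6 CPM in control mice (log2 fold change 0.19, adjusted p = 0.518), and *Etv5*, an ETS factor, had a log2 fold change of 0.19 (adjusted p = 0.641). DKO mouse 3, the highest DKO library for 7 genes of the set, was also the highest of the 8 for *Dusp6* and *Etv5*.

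Of 13 heat shock and chaperone genes, which also respond to handling of cells, 12 were tested, none was higher and 1 was lower (4 at an unadjusted p under 0.05), with a median log2 fold change of -0.24 against -0.01 over all tested genes. *Hsph1*, which encodes the chaperone HSP110, fell to 21.7, 20.8, 20.5 and 22.4 CPM in DKO mice, against 32.1, 41.5, 25.9 and 36.8 CPM in control mice. The groups did not overlap, and the log2 fold change was -0.67 (SE 0.14, adjusted p = 0.0229 by edgeR's quasi-likelihood test). The call was lost without DKO mouse 1 (adjusted p = 0.0656), 2 (0.0663) or 3 (0.0728) or control mouse 4 (0.0651). It was also lost with the replicate number as a block in the same test (adjusted p = 0.0701). *Hspa8*, the constitutive HSP70 with many processed copies in the genome, had a log2 fold change of -0.43 (adjusted p = 0.121), and *Dnaja1*, its co-chaperone, -0.25 (adjusted p = 0.128). *Hspa1b*, the inducible HSP70, which shares most reads with its near-identical copy *Hspa1a* and is uncertain for that reason, had one of -0.64 (adjusted p = 0.181). The highest control value fell in control mouse 4 for *Hspa8* and *Dnaja1*, as for *Fos*, but in control mouse 2 for *Hsph1* and in control mouse 1 for *Hspa1b*.

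**Figure D4:**
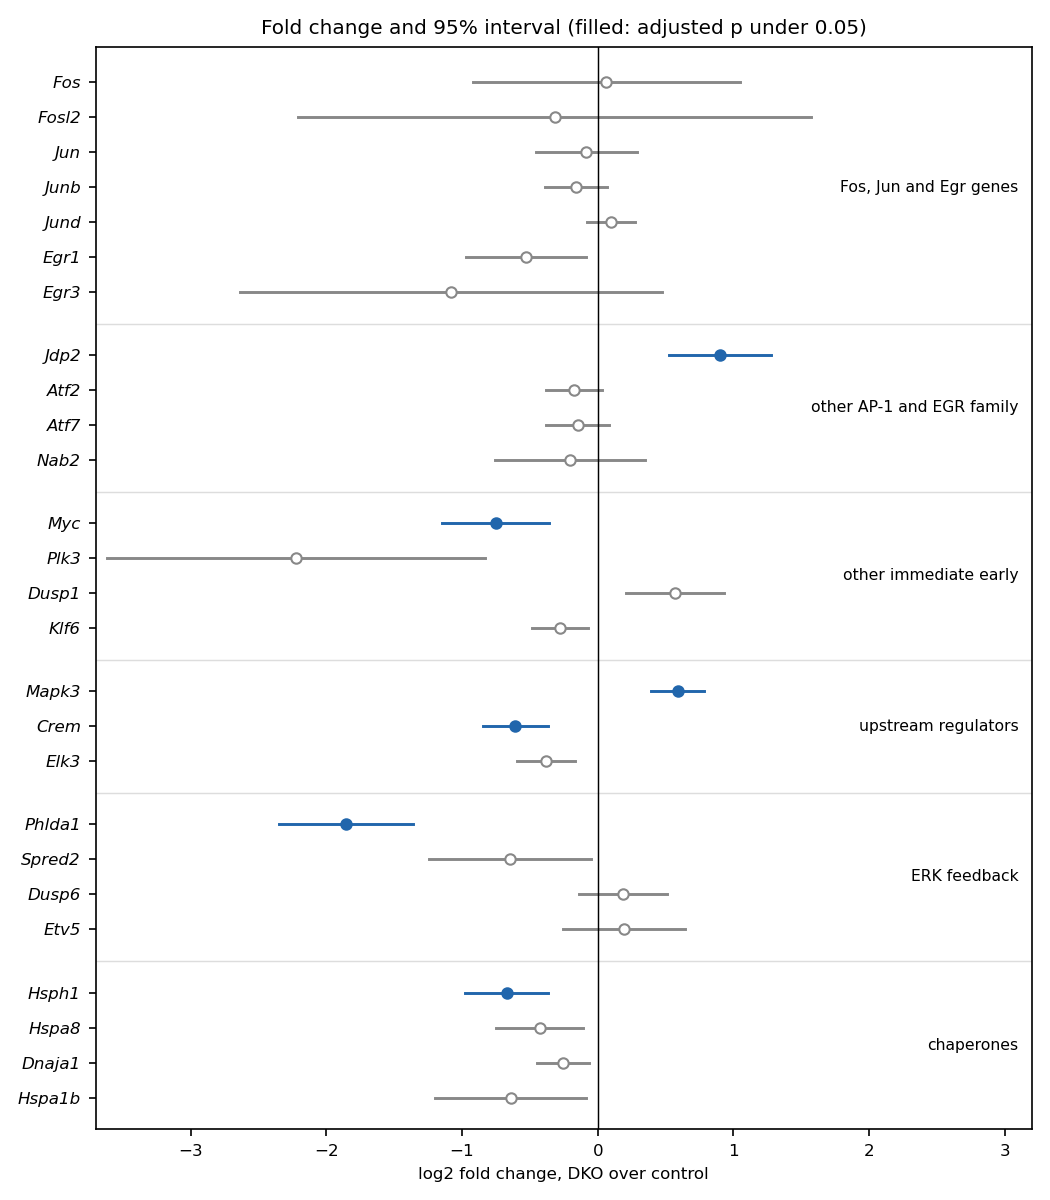
Log2 fold change, DKO over control (horizontal axis), with its 95% interval for the 7 tested genes of the set and for 3 or 4 genes of each of 5 pathway lists (rows). Points are filled where the adjusted p is under 0.05. None of the top 7 is filled, and *Jdp2*, *Myc*, *Mapk3*, *Crem*, *Phlda1* and *Hsph1* are.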

How the data were processed

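RNA from sorted pro-B cells of 4 DKO and 4 control mice was amplified by the SMART-seq protocol and sequenced as paired ends. The authors trimmed single end reads with Trimmomatic, aligned them with STAR and counted them with featureCounts, and deposited raw counts per gene without normalization. Their versions and the strand setting were not given in the sources used here, so reads of a gene and of an antisense partner could not be told apart, although no gene of the set overlaps another annotated gene. The submitters' processing notes name GRCm39, but the deposited positions match GRCm38, which was used here. All 8 columns of counts were used, and 0 other columns of per-sample values are in the table.

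Counts were normalized by TMM and filtered by filterByExpr (minimum count 10, minimum total count 15), leaving 12714 genes. Groups were compared in R 4.3.3 by the quasi-likelihood F-test (edgeR 4.0.16) with genotype as the only term, and p-values were adjusted by the Benjamini-Hochberg method (threshold 0.05). Fold changes carry edgeR's default prior count, and standard errors were derived from the fold change and the F statistic. Correlations of deviations from group means used exact permutation within groups (576 pairings, two-sided, smallest p 0.00174) in Python 3.11.15 with a pseudocount of 0.1 CPM. All replicate pairs differed by more than sampling noise. The 95% intervals of fold changes come from the same fit and cover the spread between mice, whereas floors of 3 counts cover counting error only. As alternatives, DESeq2 1.42.0, limma-voom (limma 3.58.1), the likelihood ratio test, RLE or no normalization factors, no filter, robust fitting, a replicate block, *Xist* as a covariate, a pseudocount of 1, the shortest 3' UTR, leaving out each mouse, and counts divided by 2 (chosen after seeing the data) were run. The fit was tested on simulated data of 4 and 4 libraries, with changes set only in genes above 1 CPM. It recovered 24 of 100 genes changed 1.5-fold and 78 of 100 changed 2-fold, and 4 of its 106 calls were false. A change of less than 2-fold could therefore often be missed.

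The 10 genes, the lists and the rules were chosen with earlier results of these data known. Named genes are the 10 genes, the genes past the threshold in each pathway list, filled up to 4 by the smallest p, and the 5 genes nearest in pattern to *Fos* and to *Egr1*, and 1 gene that the rule names is not reported here. Promoter windows were read from RefSeq entries that cover 8 of the 10 genes. *Egr1* and *Egr3* had no entry, so their promoters were not searched. Elements outside the windows were not searched for either. Among these 8, the CREB element (CRE, 1.79% of windows) and the common AP-1 element (TRE, 5.20%) were found in 0 genes. TATAAA was also found in *Junb*, 0 bases before its annotated start.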

Additional observations from a re-analysis of the deposited data

Results flagged for a closer look

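A library was marked where its gap to the nearest other mouse of its group, divided by the range of the group, exceeded the 95% critical value of Dixon's test for 4 values, which chance exceeds in about 1 in 20 groups. *Jund* at 242 CPM in control mouse 4 stood above control mice 1 to 3, and *Egr2* at 0.668 CPM in DKO mouse 3 above the other DKO mice. Among the pathway genes, *Mapk3* at 37.98 CPM in control mouse 1 stood below the other control mice and *Phlda1* at 2.44 CPM in DKO mouse 4 above the other DKO mice. *Hspa8* at 939 CPM in DKO mouse 3 stood below the other DKO mice.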

How the results depend on the processing

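No gene of the set was called under any of the 10 other settings of the model, and 1 was called, *Egr1*, when control mouse 1 was left out (0 to 1 calls over the 8 fits that each left out 1 mouse). Leaving out a mouse turned the sign of *Fos* (log2 fold changes of -0.18 to 0.68, below 0 at -0.14 and -0.18), *Fosl2* (-1.12 to 0.05, above 0 at 0.02 and 0.05), *Jun* (-0.18 to 0.10) and *Nab2* (-0.33 to 0.014), none of them called. Same-numbered DKO and control libraries did not deviate together (correlations of -0.27 to 0.09). Differently numbered ones had correlations of -0.33 (DKO mouse 2 with control mouse 1) to 0.32 (DKO mouse 1 with control mouse 3). The deviations thus gave no sign that the numbers pair the mice, but they cannot exclude it. With the replicate block, the calls of *Jdp2* (adjusted p = 0.0809) and *Hsph1* (0.0701) were lost, so that 0 genes of each of these lists were called, and *Egr1* had an adjusted p of 0.298.

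Counts of calls in the lists moved by at most 1 gene in each direction. Other immediate early genes had 1 higher and 2 lower genes under the likelihood ratio test and DESeq2 (*Dusp1*, adjusted p = 0.0355 and 0.0254, *Plk3*, 0.00619 and 0.0411) and 2 lower with *Xist* as a covariate. Upstream genes had 2 lower under the likelihood ratio test, DESeq2, RLE factors, the robust fit, the *Xist* covariate and divided counts (*Elk3*, adjusted p of 0.00777 to 0.0485), and 2 higher with the covariate. Chaperones had 2 lower under DESeq2. Leaving out 1 mouse gave 0 to 1 higher AP-1 and EGR family genes, 0 to 1 lower immediate early genes, 0 to 2 lower upstream genes and 0 to 1 lower chaperones. *Mapk3* and *Phlda1* were called under every setting run, with adjusted p of 0.00726 to 0.0268 and 0.00153 to 0.00994 over the left-out mice.

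With a pseudocount of 1 the within-group SD of log2 CPM was 0.23 for *Fosl2* and 0.25 for *Egr3*, both over 3 times below the value at 0.1. With the shortest 3' UTR 1 gene, *Fosl2*, held a seed match. Depth limits *Fosb*, *Atf3*, *Egr2*, *Egr3* and *Fosl2*, with 2 to 36 reads in most libraries.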
